A study of Mus musculus with 6 samples.

Results

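De novo lipogenesis is the route by which the liver turns surplus carbohydrate and acetate into fatty acids, and 10 genes of that route and its control were followed in whole liver of Lmln-KO and WT mice. They were taken by name from the gene count table: Fasn, Acaca, Acacb, Acly, Me1, Srebf1, Mlxipl, Thrsp, Acss2 and Aacs, 10 of 55367 gene names. All 10 were found and all 10 passed the filter on low counts, as did 18703 genes in all. The Lmln-KO group (genotype Lmln-/-, strain C57BL/6J) has 3 libraries, of which replicates 1 and 2 came at 46 weeks of age and replicate 3 at 39 weeks. The WT group (wild type, C57BL/6J) has 3 libraries, each at 46 weeks. Liver was the tissue of all 6, and the labels name no diet, feeding state, time of day, treatment or sex. They do not say that each replicate was a separate animal, so p-values measure the spread between these libraries. Lmln encodes invadolysin, a metalloprotease found on lipid droplets, and the comparison asks whether its loss goes with other levels of the fatty acid synthesis genes.

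In this pathway ATP-citrate lyase (Acly) releases acetyl-CoA from citrate in the cytosol, acetyl-CoA carboxylase makes malonyl-CoA from it, and fatty acid synthase (Fasn) joins malonyl units into palmitate with NADPH that malic enzyme (Me1) helps to supply. Insulin acts on these genes through SREBP1 (the product of Srebf1), glucose acts through ChREBP (the product of Mlxipl), and the liver X receptor acts on both. In liver the genes are known for a wide swing between fasting and refeeding.

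The windows before the RefSeq start sites (build GRCm38.p6) of the synthase gene and of the genes of the regulators are shown because the levels of these genes are what the comparison rests on. Each is the 250 bases before a start, read 5′ to 3′ on the strand of the gene. The capitals mark 3 motifs searched on both strands: the sterol regulatory element TCACNCCAC, the E-box CACGTG and the CCAAT box. Mlxipl and Srebf1 have several annotated starts. For Mlxipl the 2 windows with a match are given, and for Srebf1 the window of the outermost start. Another Srebf1 window with a match, chr11:60210472-60210721, is not shown. It holds ATTGG beginning at position -30 from its start site.
Fasn, chr11:120824548-120824797, minus strand: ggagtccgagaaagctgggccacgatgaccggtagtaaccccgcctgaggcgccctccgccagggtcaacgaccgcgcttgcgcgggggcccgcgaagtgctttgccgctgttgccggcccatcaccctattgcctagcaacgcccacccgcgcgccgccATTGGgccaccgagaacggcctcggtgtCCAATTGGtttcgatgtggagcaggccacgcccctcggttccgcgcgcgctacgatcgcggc
Srebf1, chr11:60222582-60222831, minus strand: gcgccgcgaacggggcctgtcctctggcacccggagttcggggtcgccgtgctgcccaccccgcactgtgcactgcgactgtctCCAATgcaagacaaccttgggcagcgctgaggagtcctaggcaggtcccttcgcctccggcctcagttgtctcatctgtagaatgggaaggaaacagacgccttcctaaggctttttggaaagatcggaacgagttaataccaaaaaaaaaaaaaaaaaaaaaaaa
Mlxipl, outermost start, chr5:135089640-135089889, plus strand: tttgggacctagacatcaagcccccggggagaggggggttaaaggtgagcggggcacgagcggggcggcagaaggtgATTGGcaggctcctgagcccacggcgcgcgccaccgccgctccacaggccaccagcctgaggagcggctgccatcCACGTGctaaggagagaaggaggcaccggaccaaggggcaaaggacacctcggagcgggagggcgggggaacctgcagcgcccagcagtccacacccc
Mlxipl, inner start, chr5:135106641-135106890, plus strand: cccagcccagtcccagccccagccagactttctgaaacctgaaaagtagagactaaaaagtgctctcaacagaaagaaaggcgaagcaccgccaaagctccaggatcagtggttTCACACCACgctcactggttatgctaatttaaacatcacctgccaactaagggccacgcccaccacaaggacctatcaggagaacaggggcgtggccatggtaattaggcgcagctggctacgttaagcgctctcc
Thrsp, chr7:97417551-97417800, minus strand: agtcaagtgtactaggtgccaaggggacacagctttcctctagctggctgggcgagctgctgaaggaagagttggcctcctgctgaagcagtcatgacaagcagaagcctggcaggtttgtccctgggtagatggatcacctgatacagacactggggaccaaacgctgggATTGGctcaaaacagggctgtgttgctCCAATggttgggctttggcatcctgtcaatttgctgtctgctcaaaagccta
The 10 genes have 14 such windows. TCACNCCAC occurred in 1 of them, the inner Mlxipl window, and in 1.05% of all 32851 mouse windows of this length. CACGTG occurred in 1, the outermost Mlxipl window, and in 6.02% of all. CCAAT or its complement ATTGG occurred in 8 windows of 7 genes and in 33.8% of all. The Fasn window holds 3 such matches, which begin at positions -90, -62 and -59 counted from the start site, and the last pair overlap. A match describes the letters and does not show a bound site, and the counts per gene do not separate transcripts from different starts. Only these exact letters were searched, so a window without a match may still hold a variant of the motif. The Thrsp gene model used for counting begins at 97417730, inside the window shown.

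Library totals ran from 20957895 to 22494696 counts in Lmln-KO and from 17388360 to 18272045 in WT. Lmln itself had 4, 12 and 2 counts in Lmln-KO replicates 1 to 3 and 79, 80 and 39 counts in WT replicates 1 to 3. The libraries also fall into sets by sex-chromosome transcripts. Lmln-KO replicates 1 and 2 and WT replicate 1 had Y-linked transcripts, at a summed 216 to 235 CPM (counts relative to the TMM-scaled library size), and Lmln-KO replicate 3 and WT replicates 2 and 3 had Xist, at 1878 to 1947 CPM. Each set thus holds 1 genotype by a single library, and for Xist that library is also the 39-week one, so its age, its set and its replicate cannot be told apart. Summed hepatocyte markers (10 of 10 detected) came to 73258 to 84635 CPM in Lmln-KO and 85621 to 103744 CPM in WT. Alb made up most of the sum, at 45714.5, 55393.3 and 60833.8 CPM in Lmln-KO and 67736, 62500.7 and 74329 CPM in WT. It did not overlap between genotypes, beside 10.3% of all tested genes (edgeR adjusted p 0.933). Ttr, Apoa1, Apoc3, Tat, Cps1, Cyp2e1, Fgb, Serpina1a and Hnf4a overlapped. Of these, Cyp2e1 and Fgb had log2 fold changes above 0 (0.23 each) and the others below 0. Adipocytes also make fat by this route. Their markers came to 18.5 to 23.1 CPM in Lmln-KO and 13.8 to 28.0 CPM in WT over 9 genes, of which Ucp1 was at 0 in every library and the defining Adipoq, Lep, Plin1 and Retn were at most 0.283 CPM in any. Cfd, at 2.498, 2.55 and 0.171 CPM in Lmln-KO and 7.36, 0 and 0 CPM in WT, and Cidea, at 1.06, 2.88 and 0 CPM in Lmln-KO and 4.39, 0 and 0 CPM in WT, were higher in the 3 libraries with Y-linked transcripts. Adrb3 and Lipe were found in every library. In bulk liver, fewer cells of a type and less RNA per cell cannot be told apart.

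No genotype difference larger than the spread between libraries was detected for any of the 10 lipogenesis genes. In edgeR's quasi-likelihood test 0 of 10 passed a Benjamini-Hochberg adjusted p of 0.05 (adjusted p 0.933 to 0.991), where 0% of all tested genes passed. At an unadjusted p under 0.05 it was again 0 of 10, beside 4.66% of all tested genes. The Lmln-KO and WT libraries overlapped for every one of the 10, while 10.3% of all tested genes did not overlap. The log2 fold change was above 0 for 6 genes and below 0 for 4, with a median of 0.09, beside -0.0038 over all tested genes. DESeq2 called 0 of the 10 as well, and 0.128% of all genes.

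Per base of deposited exon length the 10 genes covered a wide range of levels. Levels between genes are given as TPM, computed from the deposited counts and exon lengths, as mean ± SD over the 6 libraries. Fasn was first at 320 ± 113 TPM, followed by Srebf1 at 209 ± 44.0, Thrsp at 189 ± 126, Acly at 182 ± 50.1 and Mlxipl at 181 ± 19.0 TPM. The ranges of these 5 overlapped along the order. Within libraries, Fasn stood above Srebf1 in 5 of the 6, Srebf1 above Thrsp in 4 and Thrsp above Acly in 2. Differences between genes were not tested. Below a gap came Me1 at 47.6 ± 15.4, Acacb at 42.1 ± 11.4, Aacs at 42.0 ± 25.3 and Acss2 at 35.2 ± 9.72 TPM, again overlapping each other. Acaca was last at 15.8 ± 2.76 TPM and was the lowest of the 10 in each of the 6 libraries. Only the steps from Mlxipl to Me1 and from Acss2 to Acaca parted neighbours in every library. Fasn ranked 1, 2 and 1 in Lmln-KO replicates 1 to 3 and 1, 1 and 3 in WT replicates 1 to 3. With RPKM in place of TPM, Aacs and Acacb changed places. Of the acetyl-CoA carboxylase forms, the one tied to mitochondria (Acacb) stood above the cytosolic one (Acaca) in every library. The deposited length of a gene joins all its annotated exons, and came to 17074 bases for Acaca, 10163 for Acss2 and 3854 for Aacs. A longer length gives a lower TPM, so the order of the genes depends in part on these lengths.

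**Figure D1:**
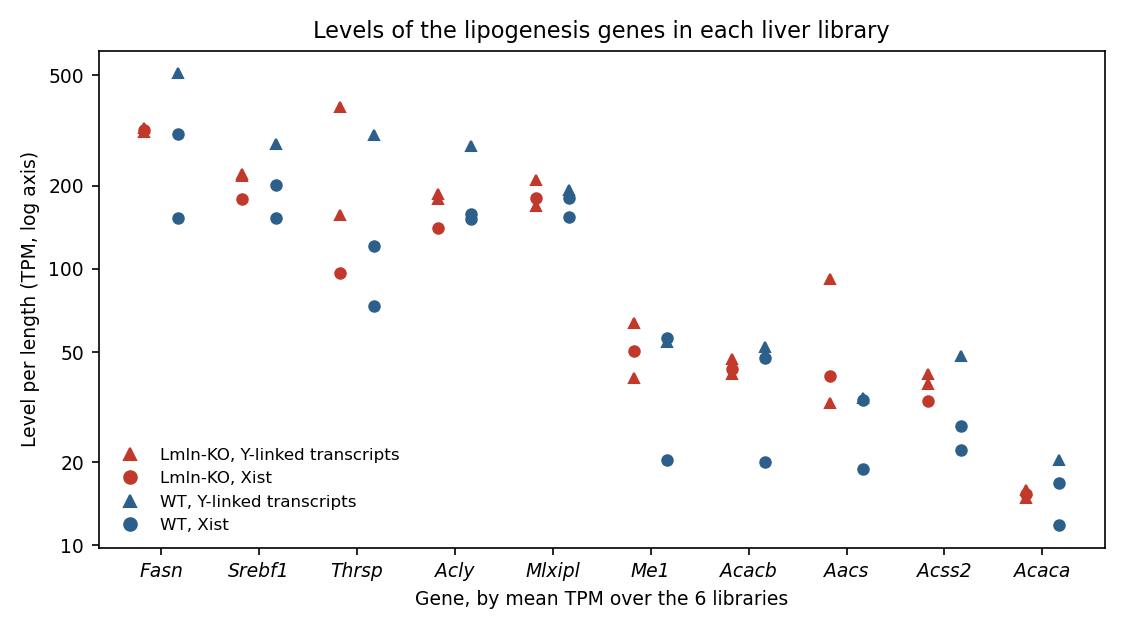
Levels per length (TPM, log axis) of the 10 lipogenesis genes in each library, ordered by the mean over 6 libraries; Lmln-KO libraries are drawn left of WT ones, triangles have Y-linked transcripts and circles have Xist. Fasn, Srebf1, Thrsp, Acly and Mlxipl lie above the other genes with averages of 181 to 320 TPM, and Acaca is lowest with 15.8 TPM.

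The enzymes that deliver acetyl units come first in the pathway. Acly (chromosome 11, 100476353 to 100528000, minus strand, GRCm38), which cleaves citrate, had 407, 423 and 283 CPM in Lmln-KO replicates 1 to 3 and 638, 337 and 341 CPM in WT replicates 1 to 3. WT replicate 1 was highest and Lmln-KO replicate 3 lowest, and the groups overlapped, with a log2 fold change of -0.24 (SE 0.29, 95% interval -0.92 to 0.43). Acss2 (chromosome 2, 155517948 to 155585724, plus strand), which makes acetyl-CoA from acetate, had 176, 174 and 129 CPM in Lmln-KO and 214, 111 and 96.0 CPM in WT. Here the single highest and the pair of lowest libraries were all WT, and the log2 fold change was 0.19 (SE 0.32, interval -0.59 to 0.96). The exons of Acss2 share 395 bases (3.89% of its length) with Gss on the opposite strand, and the counting took no account of strand.

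Aacs (chromosome 5, 125475814 to 125517410, plus strand) encodes acetoacetyl-CoA synthetase, which activates the ketone body acetoacetate in the cytosol for lipid synthesis. Its levels were 52.3, 158 and 60.2 CPM in Lmln-KO replicates 1 to 3 and 57.2, 52.5 and 31.0 CPM in WT replicates 1 to 3. Lmln-KO replicate 2 stood far above the other 5 libraries, and Lmln-KO replicate 1 lay inside the WT range. The Lmln-KO mean was 90.1 ± 58.8 CPM, against a WT mean of 46.9 ± 14.0 CPM (SD, n = 3 each). The log2 fold change of 0.94 (SE 0.52, interval -0.38 to 2.27) was the farthest from 0 among the 10, and edgeR gave an adjusted p of 0.933. Without Lmln-KO replicate 2 it was 0.26. DESeq2's unadjusted p for Aacs was 0.0172 and its adjusted p was 0.982.

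Acetyl-CoA carboxylase makes malonyl-CoA, the building block of fatty acids and an inhibitor of their entry into mitochondria. Acaca (chromosome 11, 84129672 to 84401651, plus strand), the cytosolic form, had 105, 121 and 99.5 CPM in Lmln-KO and 151, 116 and 86.1 CPM in WT. Both the highest and the lowest library were WT, and the log2 fold change was -0.11 (SE 0.20, interval -0.57 to 0.34). Acacb (chromosome 5, 114146535 to 114250761, plus strand), the form at the mitochondrial surface, had 167, 204 and 159 CPM in Lmln-KO and 219, 186 and 82.1 CPM in WT. WT replicate 3 stood well below the other 5 libraries, with a log2 fold change of 0.12 (SE 0.35, interval -0.74 to 0.98). Without WT replicate 3 the Acacb value was -0.20, and without WT replicate 1 it was 0.40.

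Fasn (chromosome 11, 120805846 to 120824547, minus strand), whose promoter window is printed above, had 1410, 1581 and 1326 CPM in Lmln-KO replicates 1 to 3 and 2419, 1354 and 713 CPM in WT replicates 1 to 3. The 3 Lmln-KO libraries lay close together between WT replicates 1 and 3, with WT replicate 2 beside the lowest of them. The Lmln-KO mean was 1439 ± 130 CPM, against a WT mean of 1495 ± 862 CPM (SD, n = 3 each). The log2 fold change was -0.06 (SE 0.41, interval -1.03 to 0.92, edgeR adjusted p 0.991). It was 0.48 without WT replicate 1 and -0.39 without WT replicate 3, so the sign rests on which of these libraries is kept. Me1 (chromosome 9, 86581371 to 86695953, minus strand), the cytosolic malic enzyme, had 64.1, 109 and 74.0 CPM in Lmln-KO and 90.9, 87.7 and 33.3 CPM in WT. WT replicate 3 was again far below the rest and Lmln-KO replicate 2 highest, with a log2 fold change of 0.22 (SE 0.43, interval -0.86 to 1.30).

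The regulators overlapped as well. Srebf1 (chromosome 11, 60199089 to 60222581, minus strand) had 514, 548 and 384 CPM in Lmln-KO and 689, 347 and 482 CPM in WT. WT replicate 1 was highest and WT replicate 2 lowest, and the log2 fold change was -0.07 (SE 0.26, interval -0.67 to 0.53). Its exons share 109 bases (1.93% of its length) with Rai1 on the opposite strand. SREBP1 is activated by cleavage of its precursor, which mRNA levels do not show. Mlxipl (chromosome 5, 135089890 to 135138382, plus strand) had 387, 518 and 380 CPM in Lmln-KO and 464, 346 and 427 CPM in WT. It was the steadiest of the 10, with all libraries between 346 and 518 CPM, and its log2 fold change of 0.06 had the narrowest interval (SE 0.17, interval -0.35 to 0.46).

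Thrsp (chromosome 7, 97412938 to 97417730, minus strand) encodes a small protein that responds to thyroid hormone, insulin and carbohydrate and promotes lipogenesis. It had 141, 376 and 80.7 CPM in Lmln-KO replicates 1 to 3 and 289, 107 and 68.6 CPM in WT replicates 1 to 3. Lmln-KO replicate 2 and WT replicate 1 were both far above the others, so the spread within each group was wide. The highest library was 5.48 times the lowest, the widest ratio of the 10, and the log2 fold change of 0.37 had the widest interval (SE 0.84, interval -1.83 to 2.56). Leaving out Lmln-KO replicate 2 gave -0.48, and leaving out WT replicate 1 gave 1.19.

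**Figure D2:**
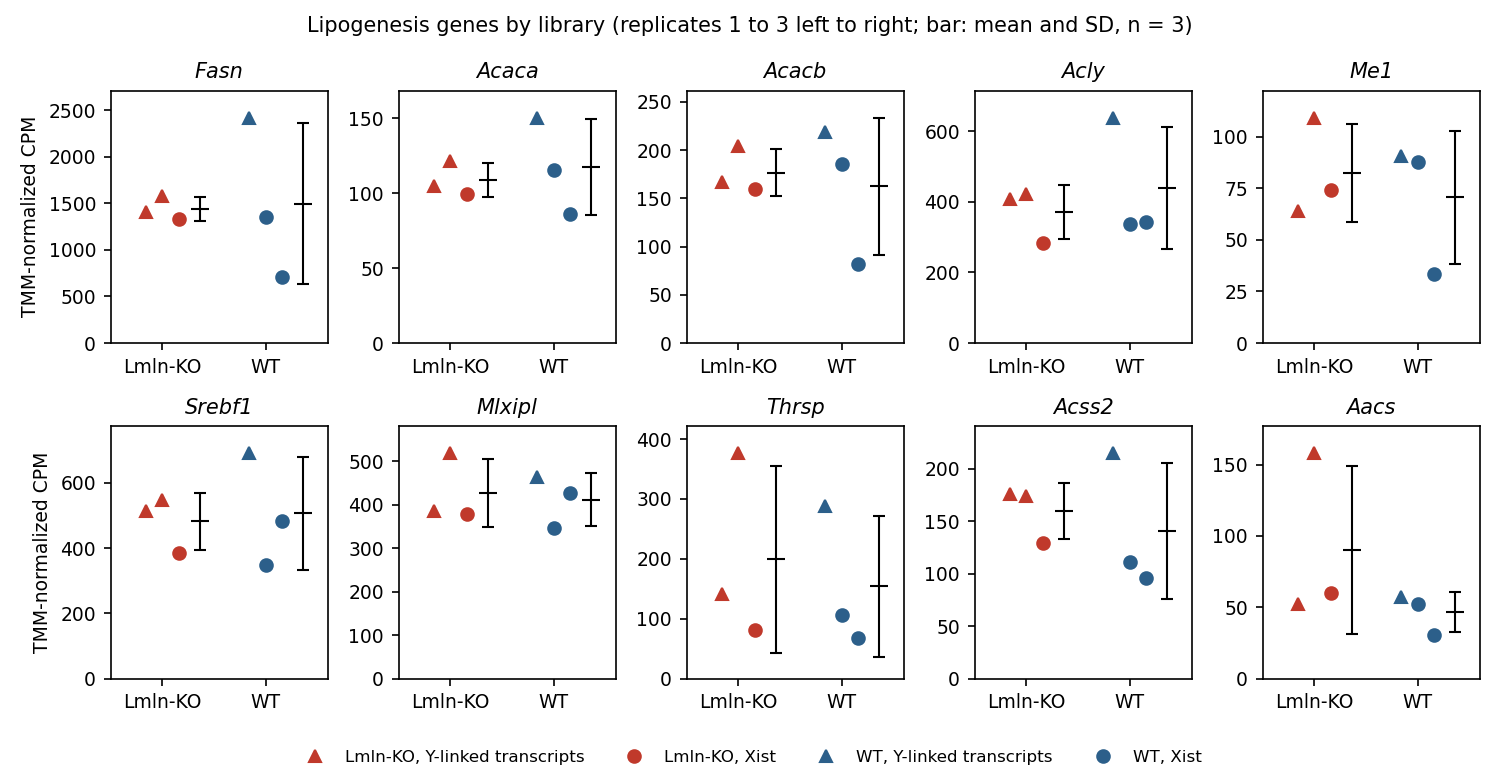
TMM-normalized CPM of each gene by library, with axes from 0; Lmln-KO replicates 1 to 3 stand left of WT replicates 1 to 3, triangles have Y-linked transcripts, circles have Xist, and black bars are the mean and SD (n = 3). The groups overlap for all 10 genes, with Fasn in Lmln-KO at 1326 to 1581 CPM inside the WT range of 713 to 2419 CPM.

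**Figure D3:**
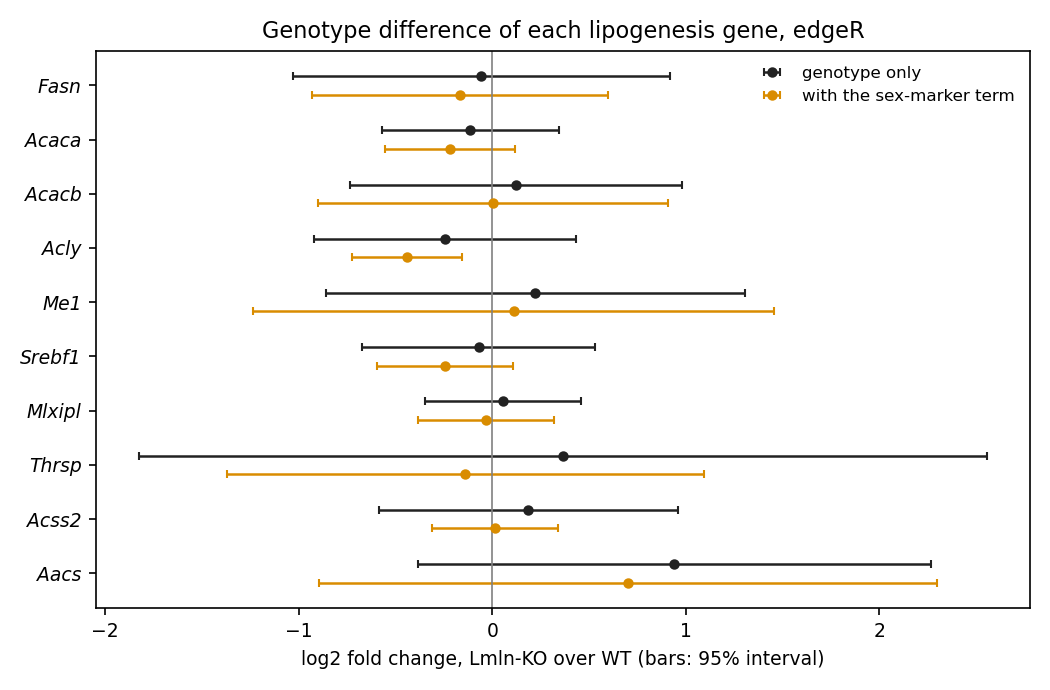
Log2 fold change of Lmln-KO over WT with its 95% interval for each gene, from edgeR fitted on genotype alone (black) or with the sex-marker term (orange). All 10 black intervals cross 0, from the narrow one of Mlxipl (-0.35 to 0.46) to that of Thrsp (-1.83 to 2.56), and the orange interval of Acly (-0.72 to -0.16) does not.

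The libraries with high and low values were largely shared by the 10 genes. WT replicate 1 was the highest library for 6 of them (Fasn, Acaca, Acacb, Acly, Srebf1 and Acss2), beside 14.1% of all tested genes. Lmln-KO replicate 2 was highest for the other 4 (Me1, Mlxipl, Thrsp and Aacs), beside 17.6% of all. WT replicate 3 was lowest for 7 (Fasn, Acaca, Acacb, Me1, Thrsp, Acss2 and Aacs), beside 23.4% of all. When each gene's log2 CPM was set against its own mean, the average over the 10 was -0.01, 0.49 and -0.21 in Lmln-KO replicates 1 to 3 and 0.49, -0.14 and -0.62 in WT replicates 1 to 3. One library of each genotype thus stood at the top, and all 10 genes lay above their own mean in Lmln-KO replicate 2. For Srebf1 and Mlxipl the lowest library was WT replicate 2, and for Acly it was Lmln-KO replicate 3.

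**Figure D4:**
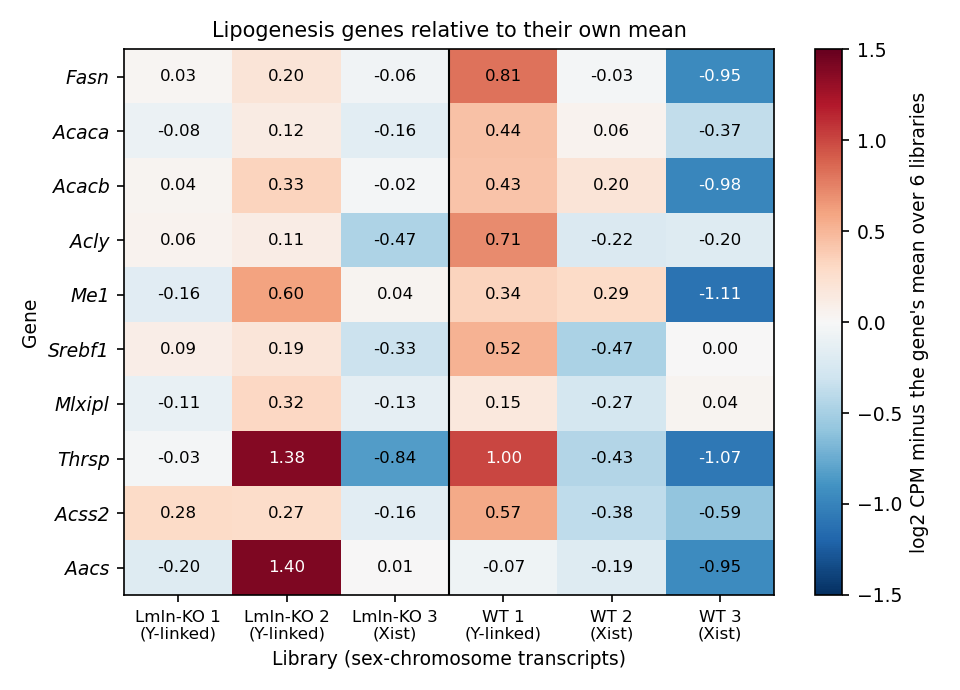
Log2 CPM of each gene minus its own mean over the 6 libraries, with Lmln-KO replicates left of the line and WT replicates right of it. Lmln-KO replicate 2 is above 0 in all 10 rows and WT replicate 1 in 9, while WT replicate 3 reaches -1.11 for Me1 and is 0.00 for Srebf1.

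Spread within a genotype was wider in WT for 7 of the 10 genes, beside 55.4% of all tested genes. The median SD of log2 CPM over the 10 was 0.263 in Lmln-KO and 0.572 in WT. Over all tested genes it was 0.214 in Lmln-KO and 0.239 in WT. For Fasn the SD was 0.128 in Lmln-KO and 0.882 in WT, while Thrsp, Mlxipl and Aacs varied more in Lmln-KO. With 3 libraries a group the difference in spread was not tested. Each group mixes the sex-marker sets in unequal numbers. WT replicate 3, the low library, also had the most Pck1, the gluconeogenic enzyme that fasting induces, at 5454 CPM, against 3134 CPM in WT replicate 2 and 2540 CPM in WT replicate 1. It had the largest summed B and T cell markers too, at 39.2 CPM (6 of 6 detected), where Lmln-KO libraries had 2.55 to 5.09 CPM and the other WT libraries had 26.8 and 6.00 CPM. The part of either in the low lipogenesis values was not tested.

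Among the 10 genes, Acacb and Me1 were the most alike across libraries, with a root mean square difference of 0.16 between their centred log2 values. Acly and Srebf1 followed at 0.17 and Fasn and Acacb at 0.19, while Mlxipl and Thrsp were least alike at 0.78. Of 8538 other genes compared over the 6 libraries, Elovl6, which elongates palmitate, was nearest to Fasn (0.15). It had 131, 133 and 106 CPM in Lmln-KO and 183, 98.6 and 47.6 CPM in WT, with WT libraries again at both ends. Gusb, a lysosomal glucuronidase, was nearest to Srebf1 (0.06). Nearest to the average of all 10 were P2ry2, Insig2, Glo1, Gstm6 and Ces1e (0.10 to 0.11). Insig2, which holds the SREBP precursors in the endoplasmic reticulum, had 186, 223 and 161 CPM in Lmln-KO and 221, 151 and 110 CPM in WT. These likenesses rest on 6 libraries that are split by sex-chromosome transcripts, and they describe only these libraries.

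Between the sex-marker sets, 5 of the 10 genes did not overlap, all higher with Y-linked transcripts, where 13.3% of all tested genes behaved so and 26.3% did not overlap in either direction. They were Fasn, Acly, Srebf1, Thrsp and Acss2. Of the adipocyte markers, Cfd and Cidea, at the levels given above, were split in the same way, whereas Adrb3 and Lipe overlapped between the sets. Adipoq, Lep, Plin1, Retn and Ucp1 were at most 0.283 CPM in any library. The part of these markers in the lipogenesis values was not tested. Thrsp averaged 269 ± 119 CPM in the Y-linked set, against 85.4 ± 19.6 CPM in the Xist set, Acly 489 ± 129 and 320 ± 32.4 CPM, and Srebf1 584 ± 92.9 and 404 ± 69.4 CPM (SD, n = 3 each). These sets come from the data and are not groups of the study, so no test was made between them. They matter here because the genotypes are unevenly split over them.

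A term for the sets in the edgeR fit lowered the fold change of each of the 10 genes. The log2 fold change of Lmln-KO over WT with the term was above 0 for 4 genes and below 0 for 6, with a median of -0.08, beside -0.0022 over all tested genes. None of the 10 passed an adjusted p of 0.05 with the term, beside 0.00535% of all tested genes, or 0.166% with DESeq2. Acly was the only one with an unadjusted p under 0.05, beside 4.34% of all tested genes. Its log2 fold change was -0.44 (SE 0.12, interval -0.72 to -0.16, edgeR unadjusted p 0.00659 and adjusted p 0.987). DESeq2 with the term gave Acly -0.43 with an adjusted p of 0.400. The Thrsp value turned to -0.14 and the Mlxipl value to -0.03 with the term, and neither passed.

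Within the sets the genotypes could be set side by side, with a single library on one side each time. Among libraries with Y-linked transcripts, both Lmln-KO libraries lay below WT replicate 1 for 6 of the 10 genes (Fasn, Acaca, Acacb, Acly, Srebf1 and Acss2), beside 33.7% of all tested genes. Fasn had 1410 and 1581 CPM in these Lmln-KO libraries, against 2419 CPM in the WT one, a difference of -0.70 in mean log2 CPM. Among libraries with Xist, Lmln-KO replicate 3 lay above both WT libraries for Acss2 and Aacs, beside 32.1% of all tested genes, and below both for Acly, beside 31.6%. Acly was thus lower in Lmln-KO in each set, by differences of -0.62 with Y-linked transcripts and -0.26 with Xist. The share of all tested genes that lay below in both sets was not counted. Aacs differed by 0.67 with Y-linked transcripts, where Lmln-KO replicate 1 lay below the WT library, and by 0.58 with Xist.

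For Acss2 the genotype difference was -0.29 in the Y-linked set, against 0.33 in the Xist set. It was the only one of the 10 whose libraries parted in opposite directions in the sets, beside 9.30% of all tested genes. The difference between these differences was tested as an interaction in edgeR. It was 0.61 for Acss2 (interval 0.04 to 1.19, unadjusted p 0.0404, adjusted p 0.99995) and 1.05 for Fasn (interval -0.21 to 2.32, unadjusted p 0.0889, adjusted p 0.99995). None of the 10 passed, and 0% of all tested genes did, with 2.43% at an unadjusted p under 0.05. The interaction leaves few degrees of freedom, since 2 of its 4 cells hold 1 library.

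The surrounding pathway was described by 8 further lists, and edgeR called no gene of any of them. Of 18 genes of carbon and NADPH supply, 13 had a log2 fold change above 0 and 5 below, with a median of 0.13, or 0.03 with the sex-marker term and -0.03 without Lmln-KO replicate 2. Slc25a10, the mitochondrial dicarboxylate carrier, averaged 186 ± 25.1 CPM in Lmln-KO livers, against 164 ± 25.7 CPM in WT livers (SD, n = 3 each). The groups overlapped, with a log2 fold change of 0.19 (SE 0.16, edgeR adjusted p 0.933), or 0.08 with the term. Of 15 genes of SREBP1 processing and upstream regulation, 9 were above 0 and 6 below, with a median of 0.02. Mbtps1, the site-1 protease that cleaves SREBP precursors, had 91.8, 89.2 and 89.0 CPM in Lmln-KO and 82.4, 83.3 and 82.2 CPM in WT. Its libraries did not overlap between genotypes, beside 10.3% of all tested genes. Its log2 fold change was 0.12 (SE 0.09, edgeR adjusted p 0.933). Of 12 regulators of acetyl-CoA carboxylase, 5 were above 0 and 7 below, with a median of -0.03. Prkaa2, a catalytic subunit of the AMP-activated kinase that inhibits the carboxylase, had a log2 fold change of 0.37 (SE 0.16, edgeR adjusted p 0.933). Of 11 tested paralogues of the lipogenesis genes, 5 were above 0 and 6 below, with a median of -0.02.

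Genes downstream of the pathway had more values below 0 than above. Of 13 genes of fatty acid elongation, desaturation and glycerolipid entry, 4 had a log2 fold change above 0 and 9 below, with a median of -0.23, or -0.11 with the sex-marker term. The median was -0.10 without Lmln-KO replicate 3. DESeq2 called 0 of them by genotype, beside 0.128% of all tested genes, and 2 with the term, Scd1 and Lpin1, beside 0.166%. Scd1, the desaturase that follows Fasn and an SREBP1 target, had 7688, 9882 and 2228 CPM in Lmln-KO and 13667, 5665 and 6751 CPM in WT. Its DESeq2 log2 fold change with the term was -1.05 (SE 0.22, adjusted p 0.00214), whereas edgeR with the term gave an adjusted p of 0.855. Lmln-KO libraries lay below WT ones within each set for Scd1, as they did for Acly. Of all tested genes 33.7% did so in the Y-linked set and 31.6% in the Xist set. The share that did so in both sets was not counted. Of 13 ChREBP partners and glucose-responsive targets, 5 were above 0 and 8 below, with a median of -0.09, or 0.05 without WT replicate 2. Gpd1, which makes the glycerol phosphate backbone of lipids, averaged 338 ± 54.5 CPM in Lmln-KO livers, against 254 ± 87.6 CPM in WT livers (SD, n = 3 each). The groups overlapped, and WT replicate 3 was lowest at 154 CPM. The Gpd1 log2 fold change was 0.42 (SE 0.27, edgeR adjusted p 0.933), or 0.28 with the sex-marker term. Of that list DESeq2 called 1 gene, G6pc of glucose release, by genotype (beside 0.128% of all tested genes) and with the term (beside 0.166%), at 489, 613 and 521 CPM in Lmln-KO livers against 1290, 989 and 1076 CPM in WT livers.

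Genes that answer to fasting and insulin were the list farthest from 0. Of 14 genes, 13 had a log2 fold change below 0 and 1 above, with a median of -0.76, or -0.34 with the sex-marker term, beside medians of -0.0038 and -0.0022 over all tested genes. The median was -0.37 without WT replicate 2 and -1.04 without Lmln-KO replicate 3, the ends of its range when single libraries were left out. edgeR called none of them. An unadjusted p under 0.05 was found for 3 of the 14, beside 4.66% of all tested genes, and for 5 with the term, beside 4.34%. DESeq2 called 1 of the 14 by genotype, G6pc, beside 0.128% of all tested genes. With the term it called 2, G6pc and Igfbp1, beside 0.166%. G6pc is the same gene as named above, since this list shares it and other genes with the ChREBP list. Igfbp1, an insulin-repressed binding protein, had 8.74, 7.32 and 87.2 CPM in Lmln-KO and 60.6, 240 and 251 CPM in WT. DESeq2 gave no adjusted p for Igfbp1 without the term. Foxo1, a transcription factor that insulin restrains, had 59.7, 53.0 and 62.0 CPM in Lmln-KO and 63.2, 75.5 and 92.1 CPM in WT. Its libraries did not overlap between genotypes, beside 10.3% of all tested genes, and edgeR gave an adjusted p of 0.933. Of 14 core clock genes, 11 were above 0 and 3 below, with a median of 0.14. DESeq2 with the term called 1 of them, Per1, beside 0.166% of all tested genes, at 17.8, 13.8 and 42.4 CPM in Lmln-KO and 32.4, 61.4 and 75.0 CPM in WT. Feeding state and time of day at collection were not in the labels, and their part in these values was not tested.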

How the data were processed

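Whole-liver RNA was sequenced in paired ends after ribosomal RNA depletion with a directional kit, per the labels' protocols. The authors deposited whole-number counts per gene name, not normalized, made with featureCounts 2.0.1 over exons of Ensembl 102 on GRCm38, per the file headers, together with an exon length per gene, which is another deposited value used here for TPM. Tools in the submitters' processing notes are edgeR 3.36.0, featureCounts and Subread 2.0.2. The command in the header sets no option for pairs, strand or reads with several matches. The notes do not say which tool aligned the reads. Reads of overlapping genes on opposite strands therefore cannot be told apart.

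Of 55367 gene names, 21412 had no count in these libraries, and 0 rows lacked a gene name. No pair of libraries agreed within sampling noise (the lowest chi-square per degree of freedom was 34.9), and each was used as 1 replicate. Counts of the 10 genes ran from 539 to 40739 per library, so counting error is small beside the spread between libraries. edgeR 4.0.16 in R 4.3.3 was fitted to all 6 libraries on genotype alone: TMM scaling, filterByExpr with a minimum count of 10 (18703 genes, 99.8% of counts), a robust quasi-likelihood fit, and Benjamini-Hochberg adjustment over all tested genes at 0.05. Standard errors come from the fold change and its F statistic. CPM and TPM are derived from the deposited counts. Values within a sex-marker set compare averages of log2 CPM (prior count 2). The sex-marker set is Xist against the summed Y-linked Ddx3y, Eif2s3y, Kdm5d and Uty. The fit was tested on simulated counts.

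The members, lists and tests were chosen with earlier results of these data known. From each further list the text could name the 4 genes with the smallest unadjusted p and any gene called in the edgeR or DESeq2 fits with or without the term. It could also name the 5 genes most like the average of the 10 and the 3 most like Fasn and Srebf1. One gene of the lists is not reported here. Genes compared for likeness had a mean log2 CPM of 3 or more. One listed gene, Pc, was matched to Pcx by RefSeq synonym. Alternatives were other scalings and filters, DESeq2 1.42.0, limma-voom (limma 3.58.1), a replicate block, the sex-marker term, values within the sets, and leaving out each library. Motifs were searched in the 250 bases before each RefSeq start.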

Additional observations from a re-analysis of the deposited data

How the results depend on the processing

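None of the 10 genes passed an adjusted p of 0.05 in any of 16 alternative fits, where the lowest adjusted p was 0.400. Of the 160 fold changes from these fits, 141 kept the sign and 19 reversed. Values within the sex-marker sets, also given below, are not among the 160. Aacs was above 0 in all 16. Other scalings moved the median of all genes by -0.03 to 0.0096 and reversed no gene. Fasn reversed to 0.11 with limma-voom, 0.12 with the replicate block and 0.43 in the Xist set. Mlxipl reversed to -0.030 with the sex-marker term, -0.021 with the term in DESeq2, -0.050 in the Y-linked set and -0.018 in the Xist set. Thrsp reversed likewise to -0.14, -0.13, -0.32 and -0.084. In the Y-linked set Acacb was -0.25, Me1 -0.12 and Acss2 -0.29. Leaving out each library in turn gave ranges of -0.39 to 0.48 for Fasn, -0.29 to 0.11 for Acaca, -0.20 to 0.40 for Acacb, -0.40 to 0.13 for Acly, -0.11 to 0.45 for Me1, -0.28 to 0.22 for Srebf1, -0.10 to 0.15 for Mlxipl, -0.48 to 1.19 for Thrsp, -0.026 to 0.63 for Acss2, 0.26 to 1.22 for Aacs and -0.12 to 0.43 for their median. Apart from Aacs, the highest value of each came without WT replicate 1. The lowest came without WT replicate 3 for Fasn, Acaca, Acacb, Me1 and Acss2, without WT replicate 2 for Acly and Srebf1, and without Lmln-KO replicate 2 for Mlxipl, Thrsp, Aacs and the median. The cause was not tested. Without single libraries the median of the fasting and insulin genes ran from -1.04 to -0.37, of carbon and NADPH supply from -0.03 to 0.21, of ChREBP targets from -0.16 to 0.05, of fatty acid products from -0.24 to -0.10, of SREBP1 processing from -0.0037 to 0.06, of carboxylase regulators from -0.08 to 0.03, of paralogues from -0.11 to 0.14 and of clock genes from 0.07 to 0.21. Genes called over the whole table numbered 0 by genotype in edgeR, 3 with no filter, 24 with DESeq2, 1 with the replicate block, 1 with the sex-marker term, 31 with the term in DESeq2, and 0 to 3 without single libraries. Same-numbered libraries deviated together for numbers 1 and 3 (r 0.46 and 0.41) and not for number 2 (r -0.31). Libraries of unlike number in the same sex-marker set also deviated together, with r 0.47 for Lmln-KO replicate 2 and WT replicate 1. For number 2 the Lmln-KO and WT libraries are in different sets, so this check cannot tell whether the numbers pair the samples. The block called none of the 10. At 3 libraries a group the intervals leave room for differences of the size seen between single libraries.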
